A study of Homo sapiens with 16 samples.

Results

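The genes examined encode LSM, SNRP, SF3A, SF3B and PRPF proteins, many of which belong to the small nuclear ribonucleoproteins (snRNPs) with which cells splice messenger RNA. They were chosen by their symbols, and 48 of the 26475 genes of the count table matched. Of these, 46 had at least 10 counts in every library and were analysed. The pseudogene SNRPD2P2 had at most 4 counts in a library and SNRPN was listed at 0 in all 16 libraries, so that both were left out. RNA-seq was carried out on MCF10A, 1 non-tumorigenic human breast epithelial cell line, in 16 libraries that form 4 groups of 4. The control group received vehicle and no collagen, and the collagen group received vehicle and collagen 1 at 0.05 mg/mL for 24 h. The DDR1i group received the same collagen with DDR1-IN-1, an inhibitor of the collagen receptor kinase DDR1, at 2 μM, and the RUNXi group received it with AI-10-104, which keeps RUNX transcription factors from binding CBFβ, at 5 μM. The vehicle, the inhibitor doses and an inhibitor time of 48 h in all are those given in the study's methods for its collagen stimulation assay. In that assay inhibitor or vehicle was given 24 h before the collagen and again with it. Nothing in the labels says that replicates came from separate cultures, so that p-values measure the spread between these libraries, which may be technical.

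Total counts were between 12184619 and 44332378 per library, and the 46 genes took between 0.642 and 0.737% of them. The authors removed collagen replicate 3, and it was left out of the fits in the same way. The calls, the median over the 46 genes and the genes described by library were also computed with it. The basal epithelial genes on the marker list, KRT5, KRT14, KRT17, TP63 and ITGA6, and the general epithelial gene CDH1 were present in all 16 libraries (42.6 to 11061 CPM). For the marker genes, CPM is a gene's reads as a proportion of the library's total counts. For the 46 genes it is a proportion of the library's scaled total. Of the leukocyte and endothelial genes, LYZ and CDH5 were at 0 counts throughout, PTPRC, CD3E and VWF had at most 1, 2 and 9 counts, and PECAM1 had at most 2.46 CPM. Of the fibroblast genes, DCN had 1.36 to 30.6 CPM, while COL1A1, COL1A2, PDGFRB and LUM stayed at or below 6.33 CPM. In bulk RNA, fewer cells with a transcript and less of that transcript per cell cannot be told apart.

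Splicing removes introns on the spliceosome, which is built from the U1, U2, U4, U5 and U6 snRNPs. In each of U1, U2, U4 and U5, Sm proteins close a ring around the small nuclear RNA. U6 carries a ring of LSM proteins in its place, and a related LSM ring with LSM1 works in the cytoplasm in the decay of messenger RNA. Further proteins are particular to one snRNP: the SF3A and SF3B complexes belong to U2 and hold it at the branch point, and many PRPF proteins belong to U5 or to the joined U4, U5 and U6 particle. These genes are active in nearly every cell, in breast epithelium as elsewhere. By role, the 46 genes comprised 7 genes of the Sm ring, 4 of other U1 and U2 proteins, 10 of the LSM rings and U7, 3 longer LSM proteins, 9 of SF3 and 13 PRPF genes.

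The question behind each inhibitor comparison was how blocking DDR1 or RUNX changes cells that are in contact with collagen. With either inhibitor, nearly all short Sm, U1, U2 and LSM genes had lower estimates than with collagen alone, of which few passed the test, and PRPF8, which has the longest coding sequence of the set, had a higher one. The median log2 fold change of the 46 genes against collagen alone was -0.19 with DDR1i and -0.26 with RUNXi, against medians of 0.0037 and 0.0051 over all 13548 genes tested. With DDR1i 34 genes had a lower and 12 a higher estimate, and with RUNXi 35 and 11. Both inhibitors were compared with the same 3 collagen libraries, so that a low or high value in those libraries enters both. Collagen alone was set against the control in a separate fit of 7 libraries that used these collagen libraries again, and there the median was 0.23, with 35 genes higher and 11 lower.

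A gene was called where its p from the quasi-likelihood test of edgeR, adjusted by Benjamini-Hochberg over all genes tested, was under 0.05. With DDR1i, 3 of the 46 genes were called, LSM3, SNRPB2 and LSM5, all lower, where 2.47% of all genes tested were called and 0.775% were called lower. With RUNXi, 3 were called, SNRPD1, LSM3 and SF3B5, all lower, where 4.05% of all genes were called and 1.46% were called lower. At an unadjusted p under 0.05 there were 18 of the 46 with DDR1i (18.0% of all genes) and 23 with RUNXi (21.1% of all genes). Of these, 17 were lower with DDR1i, where the share of all genes was 8.14%, and 21 were lower with RUNXi, where it was 10.2%. All 4 inhibitor libraries lay below the 3 collagen libraries for 8 genes with DDR1i (6.72% of all genes) and for 15 with RUNXi (8.80% of all genes). With collagen replicate 3 included, edgeR called 0 of the 46 with either inhibitor, where 0.0674 and 0.449% of all genes were called, and 7 and 13 of the 46 had an unadjusted p under 0.05 (8.60 and 12.2% of all genes). DESeq2, run without that library, called 9 of the 46 with DDR1i (8 lower, 1 higher), where it called 10.0% of all genes with an adjusted p, and 10 with RUNXi (8 lower, 2 higher), where it called 11.8%.

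**Figure D1:**
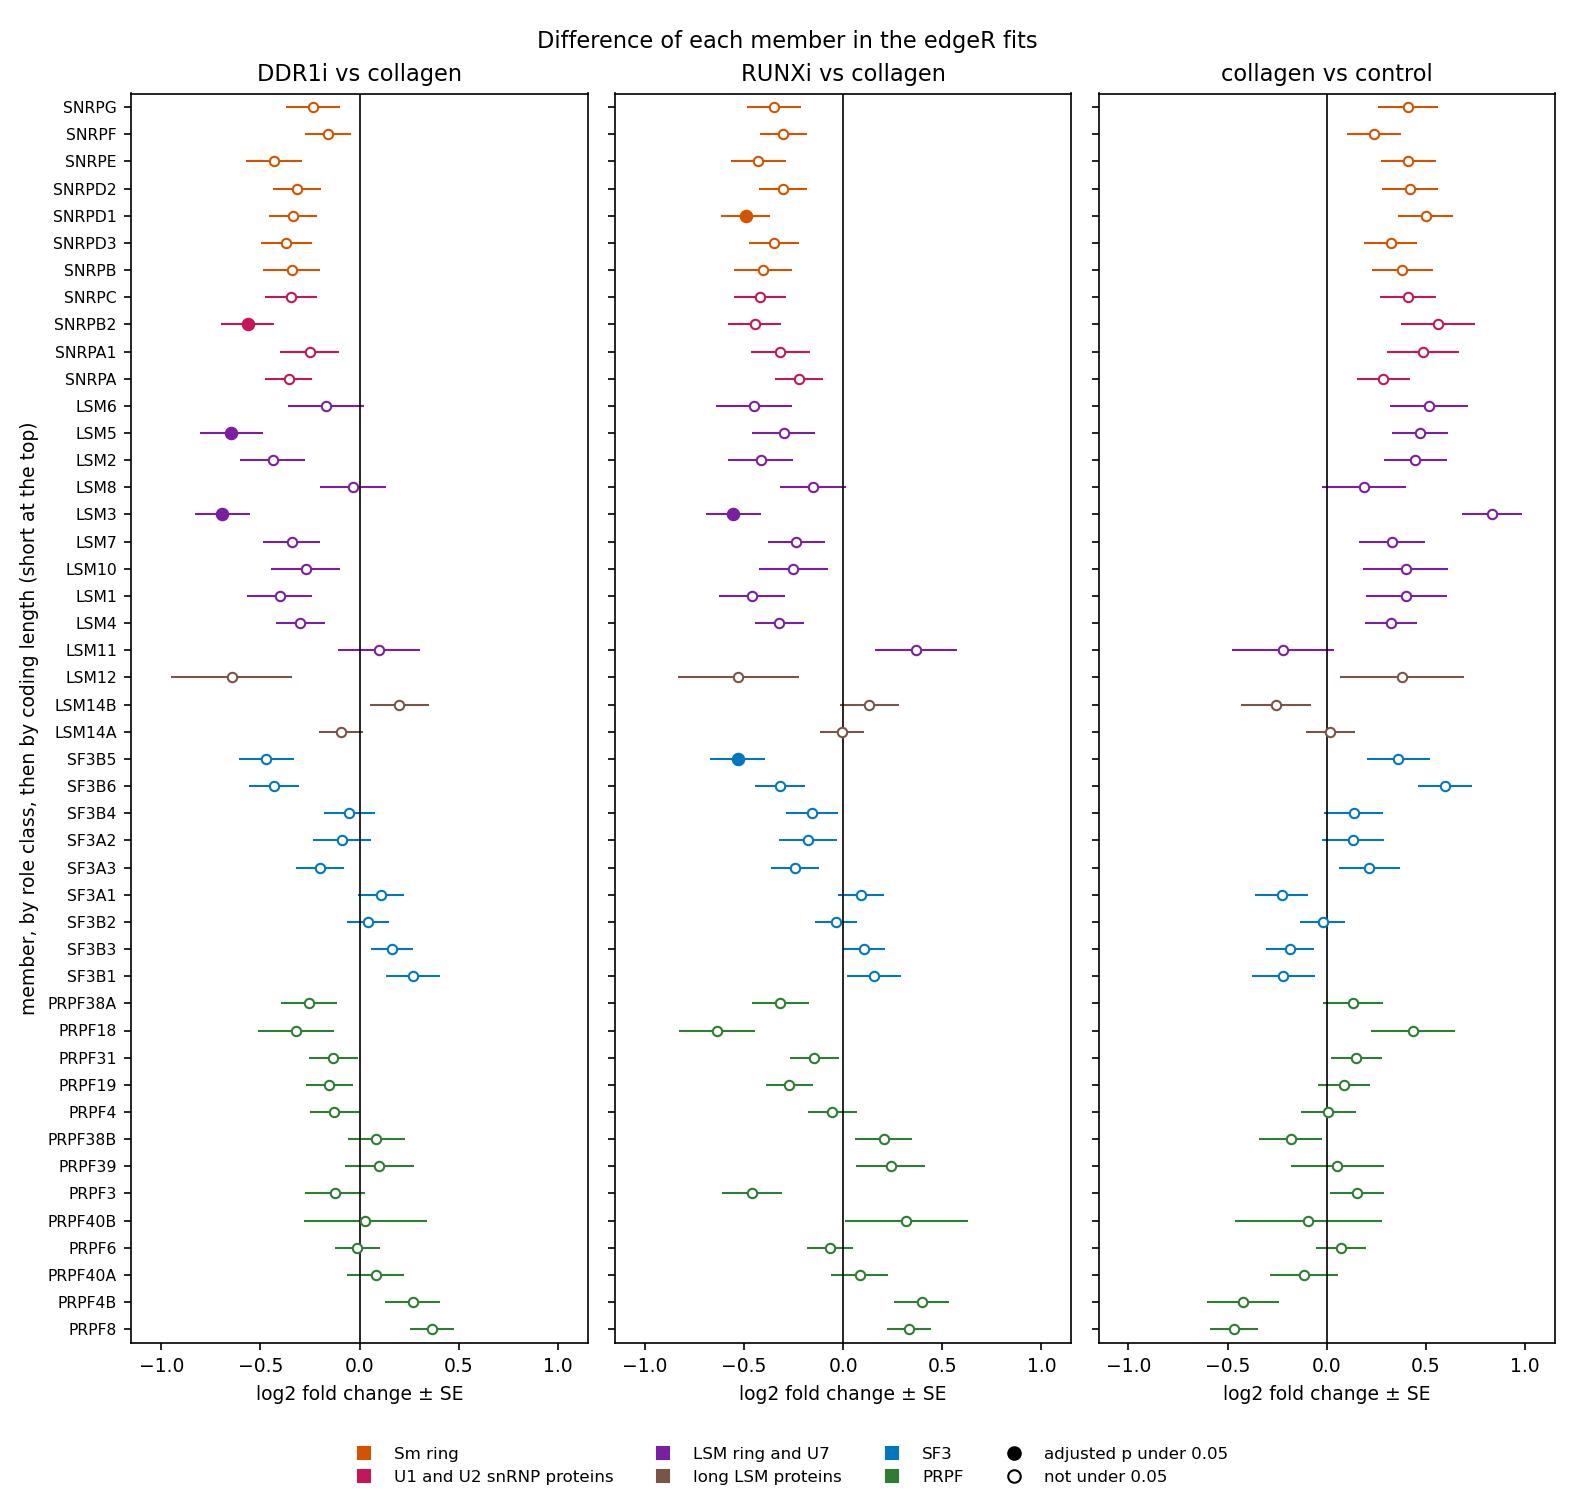
Log2 fold change and its standard error (x axis, log2 scale) for each of the 46 genes (y axis, grouped by role and ordered by coding length within a role) in 3 edgeR comparisons. Filled points mark adjusted p under 0.05; the short genes of the upper rows lie left of 0 with both inhibitors and right of 0 for collagen against control, while PRPF8 in the last row lies on the other side each time.

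In the Sm ring, the core that U1, U2, U4 and U5 share, all 7 genes had a lower estimate with each inhibitor and a higher one with collagen than in the control. The median log2 fold change was -0.34 with DDR1i, -0.35 with RUNXi and 0.41 for collagen against control. Their summed level was 1697, 1843 and 2353 CPM in collagen replicates 1, 2 and 4 and 1503 CPM in collagen replicate 3. The sum lay between 1370.1 and 1629 CPM in the control, between 1375 and 1723 CPM with DDR1i and between 1478 and 1622 CPM with RUNXi. Collagen replicates 2 and 4 therefore stood above every other library, and collagen replicate 1 was within the DDR1i range.

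SNRPD1 (chr18:19192275-19213485, GRCh37, 4 exons in the canonical transcript) encodes SmD1. Its level was 178, 221 and 236 CPM in collagen replicates 1, 2 and 4, 191, 170.3, 151 and 159.6 CPM with DDR1i and 150.4, 163, 145 and 147 CPM with RUNXi. In the control it was 140.0, 150.1, 138 and 174 CPM, and in collagen replicate 3 it was 149 CPM. The 4 RUNXi libraries lay below the 3 collagen libraries, whereas DDR1i replicate 1 lay above the lowest of these. SNRPD1 fell with RUNXi (log2 fold change -0.49, SE 0.12, adjusted p = 0.025, edgeR), with 151 ± 7.98 CPM (SD, n = 4) against 212 ± 29.9 CPM (SD, n = 3). With DDR1i the log2 fold change was -0.34 (adjusted p = 0.133, edgeR). The RUNXi call was lost without collagen replicate 2 (adjusted p = 0.0592), collagen replicate 4 (0.119), or RUNXi replicate 1, 3 or 4 (0.0539, 0.0698 and 0.0624, edgeR), and with collagen replicate 3 included (0.256).

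SNRPB encodes SmB and had the highest CPM of the ring. Collagen replicate 4 alone, at 852 CPM, stood far above the other 15 libraries, which lay between 402 and 609 CPM. Its log2 fold changes were -0.34 with DDR1i (adjusted p = 0.204, edgeR) and -0.40 with RUNXi (adjusted p = 0.108, edgeR), and they shrank to -0.089 and -0.15 without collagen replicate 4. The other Sm genes, SNRPD2, SNRPD3, SNRPE, SNRPF and SNRPG, had log2 fold changes between -0.43 and -0.16 with DDR1i and between -0.43 and -0.30 with RUNXi, with no adjusted p under 0.05. SNRPN, whose product SmN is nearly the same protein as SmB, was listed at 0, and how reads common to such close copies were assigned is not given in the sources used here.

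Among the proteins particular to U1 and U2, SNRPA and SNRPC belong to U1, and SNRPA1 and SNRPB2 to U2. All 4 genes had a lower estimate with each inhibitor (median log2 fold change -0.35 with DDR1i and -0.37 with RUNXi) and a higher one with collagen than in the control (median 0.45). SNRPB2 (chr20:16710606-16723209, 7 exons), which encodes the U2 protein that binds a stem loop of U2 RNA together with SNRPA1, had 114, 125 and 154 CPM in collagen replicates 1, 2 and 4. It had 95.9, 91.2, 87.3 and 80.2 CPM with DDR1i, 93.9, 113, 95.4 and 84.4 CPM with RUNXi and 81.7, 114, 61.2 and 100.4 CPM in the control, and collagen replicate 3 had 85.1 CPM. All 8 inhibitor libraries were below the 3 collagen libraries, and control replicate 2 was just above the lowest of these. SNRPB2 fell with DDR1i (log2 fold change -0.56, SE 0.13, adjusted p = 0.0243, edgeR), from 131 ± 20.7 CPM (SD, n = 3) to 88.7 ± 6.61 CPM (SD, n = 4). The call was lost without collagen replicate 4 (adjusted p = 0.141), DDR1i replicate 3 (0.0865) or DDR1i replicate 4 (0.09), in a fit of 15 libraries (0.0678) and with collagen replicate 3 included (0.457, edgeR). With RUNXi its log2 fold change was -0.45 (adjusted p = 0.0543, edgeR).

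SNRPA, a U1 protein that binds a stem loop of U1 RNA, had the highest CPM of these 4 genes, with 184, 173 and 222 CPM in collagen replicates 1, 2 and 4 and 153 CPM in collagen replicate 3. It had 177, 139, 142 and 144 CPM with DDR1i and 169, 172, 167 and 158 CPM with RUNXi. DDR1i replicate 1 was within the collagen range, and the other DDR1i libraries were below it. The log2 fold changes were -0.36 (adjusted p = 0.104) and -0.22 (adjusted p = 0.297, edgeR), and without collagen replicate 4 they were -0.24 and -0.10.

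Of the 10 genes of the LSM rings and of U7, the snRNP that trims histone messengers, 9 had a lower estimate with each inhibitor and a higher one with collagen than in the control. The exception each time was LSM11, a U7 protein and the one with the longest coding sequence of the 10. The median log2 fold change was -0.32 with DDR1i, -0.31 with RUNXi and 0.40 for collagen against control. LSM3 (chr3:14220317-14242622, 4 exons), a subunit of both LSM rings, was the 1 gene called with both inhibitors. Its level was 108, 116 and 129 CPM in collagen replicates 1, 2 and 4, against 85.0, 72.4, 63.5 and 70.6 CPM with DDR1i and 96.5, 83.0, 72.1 and 70.2 CPM with RUNXi. The control had 63.3, 69.5, 56.2 and 76.6 CPM and collagen replicate 3 had 70.5 CPM, so that the 3 collagen libraries of the fits stood above the other 13. LSM3 fell with both inhibitors, with log2 fold changes of -0.69 for DDR1i (SE 0.14, adjusted p = 0.00929, edgeR) and -0.55 for RUNXi (SE 0.14, adjusted p = 0.0264, edgeR). The means were 118 ± 10.9 CPM with collagen (SD, n = 3), 72.9 ± 8.95 CPM with DDR1i (SD, n = 4) and 80.5 ± 12.1 CPM with RUNXi (SD, n = 4). The DDR1i call was lost without DDR1i replicate 3 (adjusted p = 0.0541), and the RUNXi call without collagen replicate 4 (0.119) or RUNXi replicate 2, 3 or 4 (0.0534, 0.0805 and 0.078, edgeR). With collagen replicate 3 included, the log2 fold changes were -0.55 and -0.41 (adjusted p = 0.414 and 0.305, edgeR).

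LSM5 (chr7:32524950-32534895, 5 exons) is another subunit of both rings. Its level was 106, 103 and 105 CPM in collagen replicates 1, 2 and 4 but 63.0 CPM in collagen replicate 3. With DDR1i it was 81.4, 75.4, 56.8 and 53.0 CPM, below all 3 collagen libraries, and with RUNXi 104, 92.4, 79.0 and 65.7 CPM, where the highest library overlapped with them. LSM5 fell with DDR1i (log2 fold change -0.65, SE 0.16, adjusted p = 0.0287, edgeR), and with RUNXi the value was -0.30 (SE 0.16, adjusted p = 0.283, edgeR). Set directly against each other, DDR1i and RUNXi differed for LSM5 by -0.35 (SE 0.15, adjusted p = 0.677, edgeR), so that a difference between the inhibitors was not shown. The DDR1i call was lost without collagen replicate 1 (adjusted p = 0.0512), collagen replicate 4 (0.0733), DDR1i replicate 3 (0.123) or DDR1i replicate 4 (0.113), and with collagen replicate 3 included (0.464, edgeR). LSM4, the ring subunit with the highest CPM, had 222, 252 and 288 CPM in collagen replicates 1, 2 and 4 and 206 CPM in collagen replicate 3. It had 250.1, 190.5, 184 and 203 CPM with DDR1i and 193, 209.8, 221 and 193 CPM with RUNXi, with log2 fold changes of -0.30 and -0.32 (adjusted p = 0.193 and 0.129, edgeR), or -0.19 and -0.22 without collagen replicate 4. LSM1, which marks the cytoplasmic ring, and LSM8, which marks the ring on U6, had log2 fold changes of -0.40 and -0.031 with DDR1i and of -0.46 and -0.15 with RUNXi, none with an adjusted p under 0.05. Of the longer LSM proteins, LSM14A, a protein of cytoplasmic RNA granules, had 189, 188 and 175 CPM in collagen replicates 1, 2 and 4, 164, 179, 177 and 171 CPM with DDR1i and 192, 199.9, 171 and 174 CPM with RUNXi, and the groups overlapped. LSM12 was the gene with the fewest reads, with 83 counts in its lowest library. Its log2 fold changes were -0.65 with DDR1i (adjusted p = 0.261) and -0.53 with RUNXi (adjusted p = 0.33, edgeR). Its DDR1i libraries lay below the 3 collagen libraries. LSM14B had higher estimates, 0.20 with DDR1i (adjusted p = 0.536) and 0.13 with RUNXi (adjusted p = 0.674, edgeR).

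**Figure D2:**
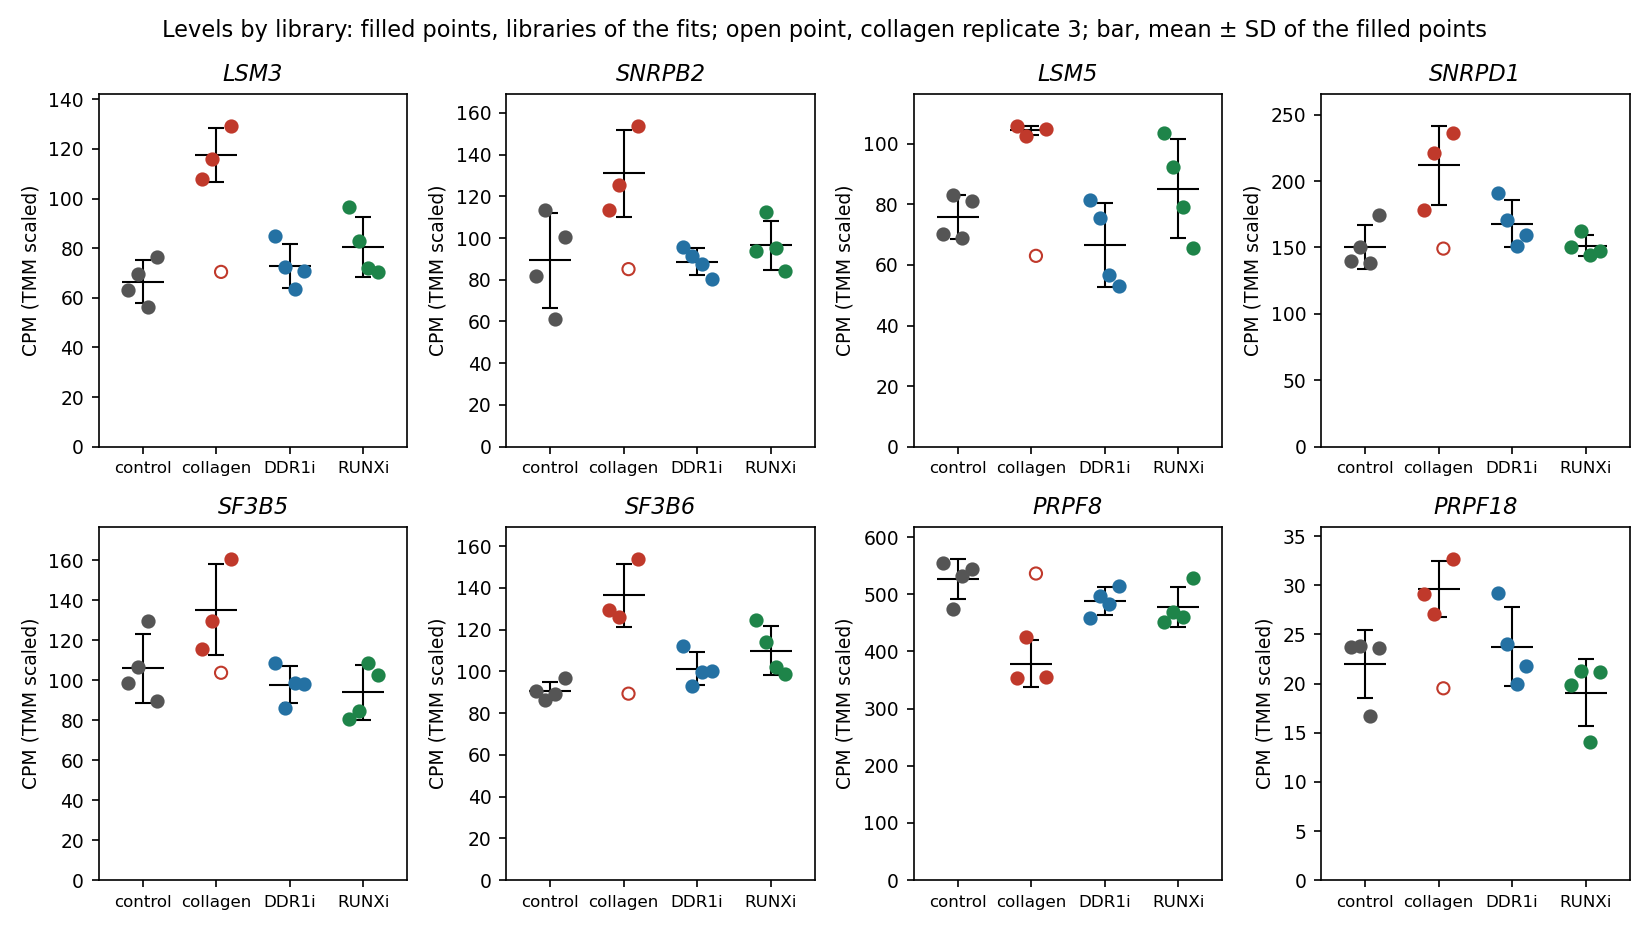
Level by library (y axis, CPM scaled by TMM, from 0) in the 4 groups (x axis) for the 5 called genes and the 3 others with the smallest p-values. Points are libraries, the open point is collagen replicate 3, and the bar is the mean ± SD of the filled points. In all panels but PRPF8 the filled collagen points are highest on average and the open point lies below them, whereas for PRPF8 (354 to 426 CPM) they are lowest and the open point lies above them.

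SF3B5 and SF3B6 are small proteins of the SF3B complex, which grips the branch point of the intron with U2. SF3B5 (chr6:144416021-144416710) has a single exon in its canonical transcript. It had 116, 129.6 and 161 CPM in collagen replicates 1, 2 and 4, 80.4, 84.5, 109 and 103 CPM with RUNXi and 109, 86.0, 98.8 and 98.0 CPM with DDR1i. The control had 98.4, 107, 129.8 and 89.6 CPM and collagen replicate 3 had 104 CPM. Each inhibitor library was below the 3 collagen libraries, and control replicate 3 was just above the middle one. SF3B5 fell with RUNXi (log2 fold change -0.53, SE 0.14, adjusted p = 0.0318, edgeR), from 135 ± 22.9 CPM (SD, n = 3) to 94.1 ± 13.8 CPM (SD, n = 4), and with DDR1i the value was -0.47 (adjusted p = 0.0664, edgeR). The RUNXi call was lost without collagen replicate 4 (adjusted p = 0.198), RUNXi replicate 1 (0.0836) or RUNXi replicate 2 (0.0869), and with collagen replicate 3 included (0.215, edgeR).

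SF3B6 had 129.6, 126 and 154 CPM in collagen replicates 1, 2 and 4 and 89.3 CPM in collagen replicate 3. It had 90.4, 86.5, 88.9 and 96.6 CPM in the control, 112, 93.0, 99.5 and 100.4 CPM with DDR1i and 125, 114, 102 and 98.6 CPM with RUNXi. The 3 collagen libraries stood above the other 13. Its log2 fold changes were -0.43 with DDR1i (adjusted p = 0.0618) and -0.32 with RUNXi (adjusted p = 0.14, edgeR). Larger subunits had smaller differences. SF3B1, the scaffold of the complex and a gene often mutated in blood cancers, had log2 fold changes of 0.27 and 0.16, and SF3B3 of 0.17 and 0.10, none with an adjusted p under 0.05. SF3B2, the SF3 gene with the highest CPM, had 444, 432 and 448 CPM in collagen replicates 1, 2 and 4, 465, 429.9, 439.9 and 488 CPM with DDR1i and 386, 432, 461 and 453 CPM with RUNXi, and the groups overlapped. Its log2 fold changes were 0.044 with DDR1i and -0.034 with RUNXi (adjusted p = 0.897 and 0.906, edgeR). The summed level of the 9 SF3 genes was 1869 to 2091 CPM in collagen replicates 1, 2 and 4, 1897 to 2056 CPM with DDR1i and 1841 to 1952 CPM with RUNXi, and these ranges overlapped.

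The 13 PRPF genes did not share a direction, with 7 lower and 6 higher estimates for each inhibitor and medians of -0.010 with DDR1i and -0.054 with RUNXi. PRPF8 (chr17:1553923-1588161, 43 exons) encodes the U5 protein at the catalytic centre of the spliceosome. Its level was 354, 426 and 355 CPM in collagen replicates 1, 2 and 4 and 536 CPM in collagen replicate 3. It was 554, 475, 532 and 544 CPM in the control, 458, 497, 483 and 514 CPM with DDR1i and 451, 469, 461 and 529 CPM with RUNXi. The 3 collagen libraries of the fits lay below the other 13. The log2 fold changes were 0.37 with DDR1i (SE 0.11, adjusted p = 0.0738, edgeR) and 0.33 with RUNXi (SE 0.11, adjusted p = 0.0849, edgeR), and with DESeq2 the adjusted p was 0.0113 and 0.0208. Once the trend with coding length was removed from each library, they were -0.13 and -0.098.

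PRPF18, a factor of the second catalytic step, had estimates of the same sign as the short genes. It had 29.1, 27.1 and 32.7 CPM in collagen replicates 1, 2 and 4, 29.3, 24.0, 19.9 and 21.8 CPM with DDR1i and at most 21.3 CPM with RUNXi. The RUNXi libraries were below the 3 collagen libraries and the DDR1i libraries overlapped with them, with log2 fold changes of -0.64 (adjusted p = 0.0565) and -0.32 (adjusted p = 0.41, edgeR). PRPF18 overlaps the gene FRMD4A in GRCh37, and 14 of the 46 genes overlap another protein-coding gene of the table, so that their counts are uncertain where counting did not use strand. PRPF3, a protein of the U4 and U6 particle, had log2 fold changes of -0.13 with DDR1i and -0.46 with RUNXi (adjusted p = 0.0781 for the latter), and PRPF4B, a kinase, of 0.27 and 0.40 (adjusted p = 0.0948 for the latter, edgeR).

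**Figure D3:**
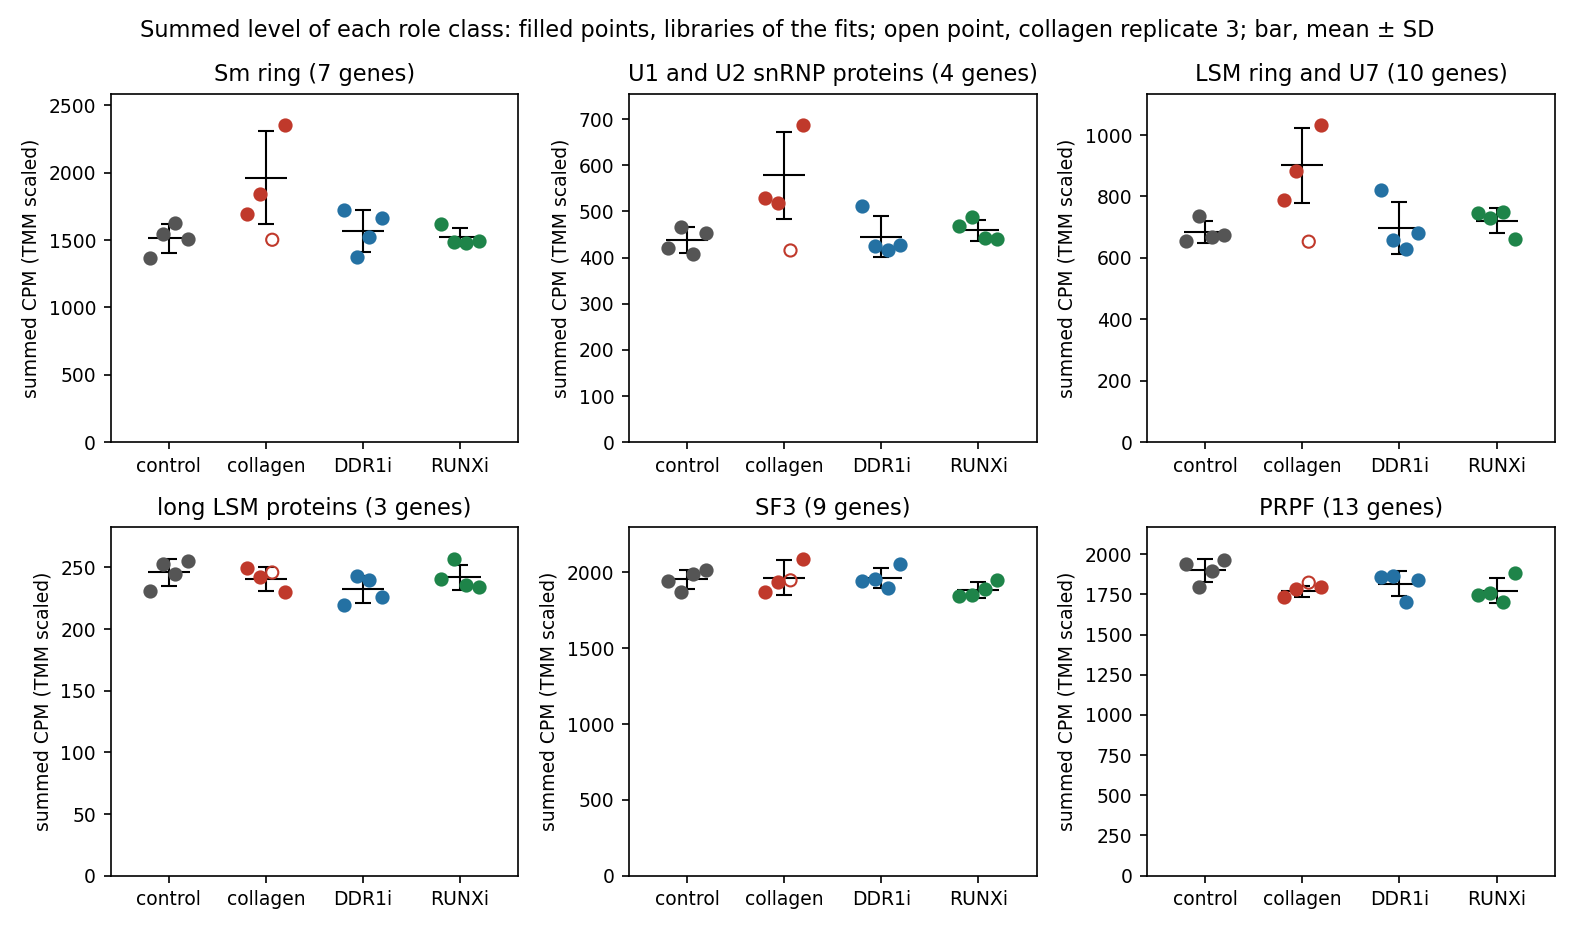
Summed level by library (y axis, CPM scaled by TMM, from 0) of the genes of each role in the 4 groups (x axis). Points are libraries, the open point is collagen replicate 3, and the bar is the mean ± SD of the filled points. For the Sm ring, the U1 and U2 proteins and the LSM rings, collagen replicate 4 is the highest library (2353, 687 and 1032 CPM) and collagen replicate 3 (1503, 415 and 653 CPM) lies within or just below the control range, while the PRPF sum is lowest on average with collagen (1769 CPM).

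Collagen alone was compared with the control for the effect of the collagen itself. edgeR called 0 of the 46 genes and 0 of all 13092 genes tested (0%), and DESeq2 called 5 of the 46 (LSM3, LSM5, SF3B6 and SNRPD1 higher, PRPF8 lower), where it called 5.76% of all genes with an adjusted p. At an unadjusted p under 0.05 edgeR had 19 of the 46 (13.4% of all genes), 17 of them higher (6.42% of all genes). The libraries did not overlap, with collagen higher, for 10 genes (6.32% of all genes), namely LSM2, LSM3, LSM5, LSM6, PRPF18, SF3B6, SNRPA, SNRPC, SNRPD1 and SNRPE. The largest estimate was that of LSM3, 0.83 (SE 0.15, adjusted p = 0.106, edgeR). SF3B6 had 0.60 (adjusted p = 0.114), SNRPB2 0.56 (adjusted p = 0.21), SNRPD1 0.50 (adjusted p = 0.146), LSM5 0.47 (adjusted p = 0.169) and PRPF8 -0.47 (adjusted p = 0.135, edgeR). When all 15 libraries shared 1 fit, edgeR called 2.28% of all genes and 4 of the 46, LSM3, SF3B6 and SNRPD1 as higher and PRPF8 as lower (adjusted p = 0.00714, 0.0187, 0.0359 and 0.0235).

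Collagen replicate 3, which took no part in these fits, lay below collagen replicates 1, 2 and 4 for 27 of the 46 genes (58.7%) and above them for 7 (15.2%), against 26.2% and 29.8% of 13518 genes. Each gene was set against its own mean over the 16 libraries. The median deviation of the 46 genes on the log2 scale was 0.41 in collagen replicate 4, 0.13 and 0.070 in collagen replicates 2 and 1 and -0.055 in collagen replicate 3. It lay between -0.059 and 0.0039 in the control, between -0.11 and 0.066 with DDR1i and between -0.049 and -0.022 with RUNXi. Without collagen replicate 4 the median log2 fold change of the 46 genes was -0.092 with DDR1i and -0.10 with RUNXi, and edgeR called 1 of the 46 (LSM3) and 0 of the 46, where it called 0.620 and 0.876% of all genes. At an unadjusted p under 0.05 there were then 7 and 9 of the 46, where the shares of all genes were 13.2 and 14.3%.

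**Figure D4:**
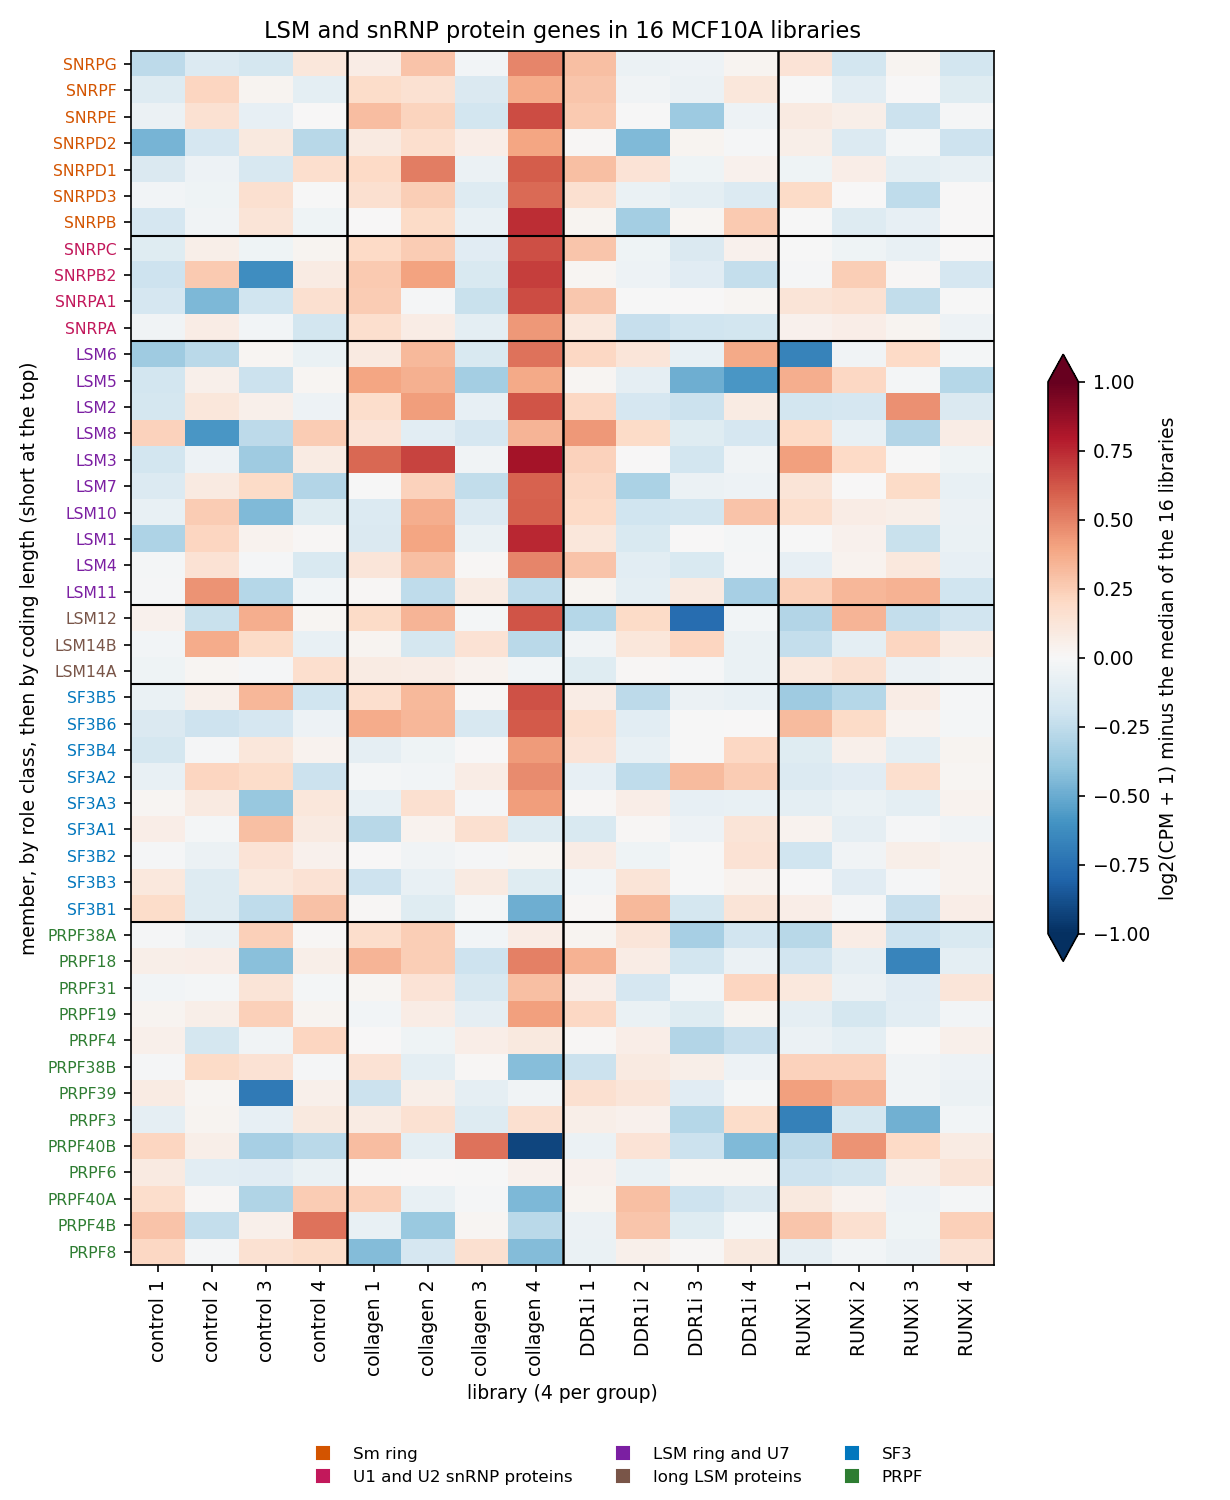
Level of each of the 46 genes (rows, grouped by role and ordered by coding length within a role) in the 16 libraries (columns), as log2(CPM + 1) minus the median of the 16 libraries, with red for higher and blue for lower. Collagen replicate 4 is red in all rows of the Sm ring, the U1 and U2 proteins and the LSM rings but LSM11, and blue for PRPF8, SF3B1 and PRPF40B. Measured instead from each gene's mean over the 16 libraries, the median over the 46 genes is 0.41 there and -0.055 in collagen replicate 3.

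Between the inhibitors themselves, edgeR called 0 of the 46 genes (0.568% of all genes), DESeq2 also called 0 (0.910% of all genes), and 2 had an unadjusted p under 0.05 (6.19% of all genes). These were PRPF3 (0.33, SE 0.14) and LSM5 (-0.35, SE 0.15), which were also the extremes of the set, and the median was 0.030. Against the control, which had neither inhibitor nor collagen, edgeR called 0 of the 46 with DDR1i (0.212% of all genes) and 0 with RUNXi (0.401% of all genes), and DESeq2 also called 0 with each (0.470 and 1.03% of all genes). At an unadjusted p under 0.05 there were 0 genes with DDR1i (5.13% of all genes) and 2 with RUNXi (6.81% of all genes), SF3B6 and PRPF3. The medians were 0.013 with DDR1i and -0.015 with RUNXi. Of the genes called against collagen, LSM3 had a log2 fold change against the control of 0.14 with DDR1i (SE 0.14) and 0.28 with RUNXi (SE 0.14). With DDR1i SNRPB2 had 0.00039 (SE 0.15) and LSM5 -0.17 (SE 0.16), and SNRPD1 and SF3B5 had 0.0062 (SE 0.11) and -0.17 (SE 0.13) with RUNXi. In this comparison the inhibitor and the collagen cannot be told apart.

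The direction of a gene went with the length of its coding sequence, which ranges from 228 bases for SNRPG to 7005 bases for PRPF8. Of the 30 genes at or below 1422 bases, the median of all genes, 28 had a lower estimate with DDR1i (median log2 fold change -0.33), 28 with RUNXi (median -0.32), and 28 a higher one with collagen than in the control (median 0.39). Of the 16 longer genes, 10 had a higher estimate with DDR1i (median 0.062), 9 with RUNXi (median 0.087), and 9 a lower one with collagen than in the control (median -0.057). Across the 46 genes, the Spearman correlation of log2 fold change and coding length was 0.75 with DDR1i, 0.69 with RUNXi and -0.80 for collagen against control. It was 0.47, 0.42 and -0.50 over the other genes (12273 in the inhibitor fit and 11997 in the control fit), where genes are points that share the same libraries. Estimates of genes outside the set thus varied with length in the same way, and those in the shortest of 10 equal bins (75 to 549 bases) had a median of -0.25 with DDR1i, -0.26 with RUNXi and 0.32 for collagen against control. The 18 genes of the set in that bin had medians of -0.34, -0.35 and 0.41. Set against the other genes of its own bin, a gene of the set was below the bin's median in 37 of 46 cases with DDR1i (median difference -0.12) and 36 of 46 with RUNXi (median difference -0.12), and above it in 35 of 46 for collagen against control (median difference 0.098). All 9 SF3 genes and all 4 U1 and U2 genes were below their bin's median with each inhibitor.

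The same dependence on length could be read from single libraries. The median deviation of short genes minus that of long genes (transcripts up to 2323 bases and from 4379 bases, log2 scale) was 0.60 in collagen replicate 4, 0.20 and 0.15 in collagen replicates 2 and 1 and -0.14 in collagen replicate 3. It was between -0.24 and -0.020 in the control, between -0.20 and 0.18 with DDR1i, where replicate 1 was the high one, and between -0.11 and -0.030 with RUNXi. When the trend with coding length was removed from each library before the fit, a step chosen after seeing the data, edgeR called 0 of the 46 genes with DDR1i and 1 with RUNXi (PRPF3, lower), where it called 0.260 and 0.950% of all genes. At an unadjusted p under 0.05 there were 7 and 11 of the 46, where the shares of all genes were 12.2 and 15.1%. With the trend of transcript length removed instead, it called LSM3, SNRPB2 and SNRPD1 with DDR1i and LSM3 and SNRPD1 with RUNXi, where 1.18 and 1.49% of all genes were called. After removal of the coding length trend, the log2 fold change of LSM3 was -0.49 with DDR1i (adjusted p = 0.0951) and -0.33 with RUNXi (adjusted p = 0.216, edgeR). With DDR1i that of SNRPB2 was -0.43 (adjusted p = 0.106) and that of LSM5 -0.44 (adjusted p = 0.226, edgeR). With RUNXi that of SNRPD1 was -0.27 (adjusted p = 0.223) and that of SF3B5 -0.29 (adjusted p = 0.244, edgeR). All 5 genes thus kept a lower estimate, smaller than before, that no longer passed the test. The median of the 46 genes became -0.16 with DDR1i, -0.12 with RUNXi and 0.051 for collagen against control, where the medians of all genes became -0.048, -0.015 and -0.045. Why library values varied with length was not tested, and a response of short genes to collagen and a length effect of single libraries cannot be told apart by removing the trend.

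**Figure D5:**
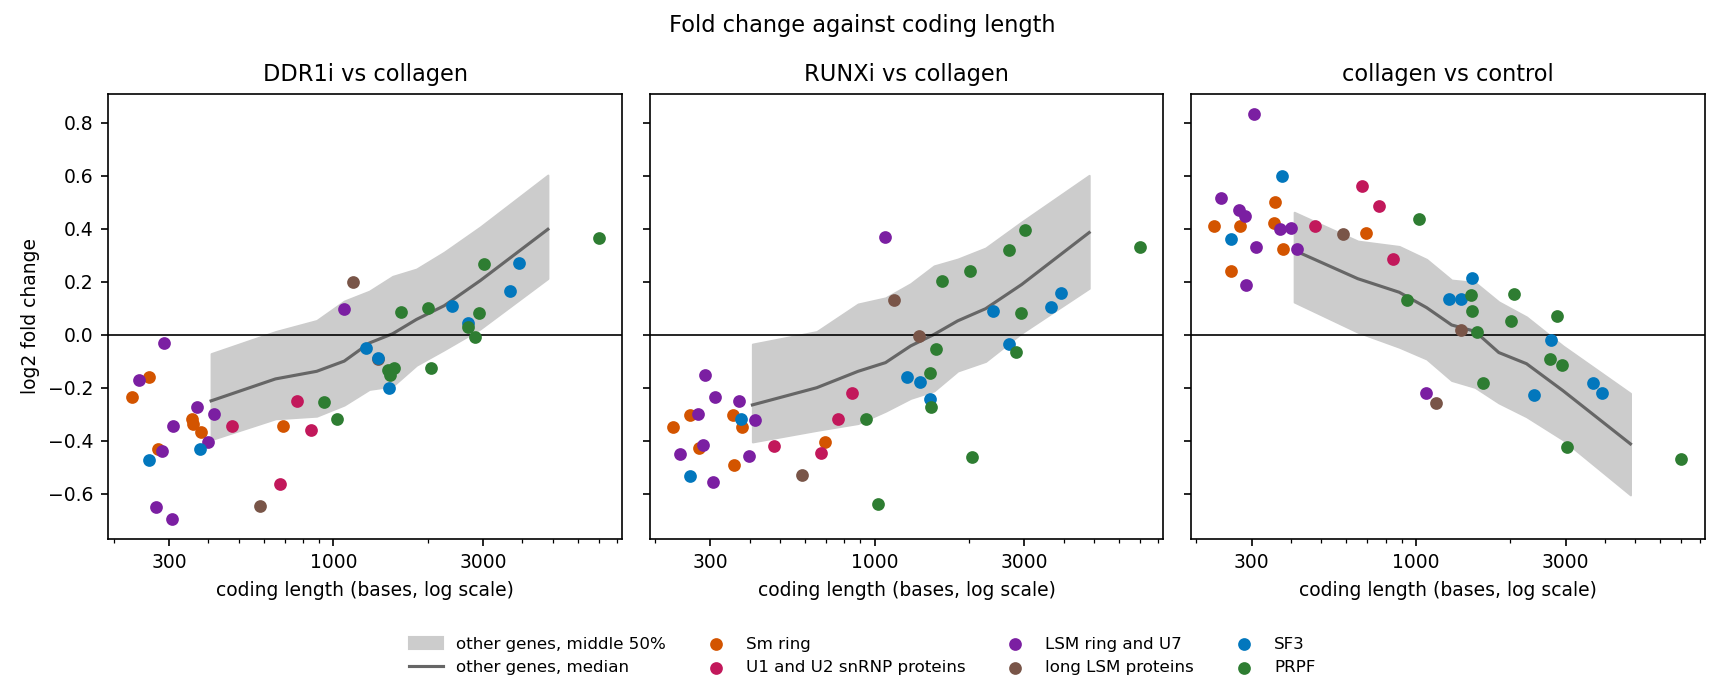
Log2 fold change (y axis) against coding length (x axis, bases, log scale) in 3 comparisons. Coloured points are the 46 genes by role. The line is the median of the other tested genes in 10 bins of equal size, and the band spans their quartiles. Short genes lie below 0 with both inhibitors and above 0 for collagen against control. The set slopes as the line does, but most of its genes lie below the line with DDR1i and RUNXi (median differences -0.12 and -0.12). Most lie above it for collagen against control (median difference 0.098).

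For the promoters, 37 of the 46 genes matched the RefSeq promoter table (GRCh38.p14), and the 250 bases before the start were searched on both strands for 5 motifs. CCGGAAG, a core sequence of ETS factors, was present in 16 of the 37 (43.2%), in 15.9% of the promoters of 9986 tested genes and in 8.52% of all 35116 promoters. GGGCGG, the GC box, was present in 21 (56.8%, against 67.3% of tested genes and 42.6% of all), and CCAAT in 16 (43.2%, against 35.0% of tested genes). TATAAA was in 1 (2.70%, against 5.38% and 10.7%), and GCATGCGC, an NRF1 sequence, in 2 (5.41%, against 4.71% and 2.63%). The median GC content was 60%, against 58% of all promoters. The stretches of called genes and of PRPF8 follow, 5′ to 3′ on the strand of the gene, to show where the matches lie in genes whose levels the text describes. Capitals mark the matches.
LSM3, chr3:14178567-14178816, plus strand, with a GC box read on the other strand: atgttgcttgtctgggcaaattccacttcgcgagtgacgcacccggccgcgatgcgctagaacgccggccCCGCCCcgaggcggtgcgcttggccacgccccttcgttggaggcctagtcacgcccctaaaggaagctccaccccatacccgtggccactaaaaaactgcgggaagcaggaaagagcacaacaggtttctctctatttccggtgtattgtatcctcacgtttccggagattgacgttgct
LSM5, chr7:32490381-32490630, minus strand, with a CCAAT box read on the other strand: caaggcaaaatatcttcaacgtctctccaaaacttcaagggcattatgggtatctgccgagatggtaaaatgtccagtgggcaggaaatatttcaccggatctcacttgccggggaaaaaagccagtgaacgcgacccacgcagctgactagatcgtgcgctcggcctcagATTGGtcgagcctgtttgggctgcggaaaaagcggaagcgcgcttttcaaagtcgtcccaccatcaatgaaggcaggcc
SNRPB2, chr20:16729776-16730025, plus strand, with the ETS core on each strand: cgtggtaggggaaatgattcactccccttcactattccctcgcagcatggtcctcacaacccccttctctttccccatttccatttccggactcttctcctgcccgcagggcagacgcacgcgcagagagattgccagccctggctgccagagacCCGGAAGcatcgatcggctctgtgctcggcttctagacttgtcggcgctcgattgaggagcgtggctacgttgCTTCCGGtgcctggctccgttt
SF3B5, chr6:144095574-144095823, minus strand, with a GC box and a CCAAT box: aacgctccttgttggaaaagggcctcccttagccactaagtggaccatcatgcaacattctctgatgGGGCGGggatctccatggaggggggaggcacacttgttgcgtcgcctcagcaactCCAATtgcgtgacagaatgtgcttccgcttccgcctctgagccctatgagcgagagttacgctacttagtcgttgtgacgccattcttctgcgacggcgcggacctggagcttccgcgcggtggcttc
PRPF8, chr17:1684868-1685117, minus strand, with a CCAAT box read on the other strand: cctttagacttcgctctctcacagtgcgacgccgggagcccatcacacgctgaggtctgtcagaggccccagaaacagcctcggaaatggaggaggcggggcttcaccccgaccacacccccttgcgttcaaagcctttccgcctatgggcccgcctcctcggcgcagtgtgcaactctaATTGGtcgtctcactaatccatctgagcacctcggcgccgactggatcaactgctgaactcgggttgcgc
SNRPD1 has no entry in the table. These matches describe letters in a window, and binding was not measured.

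Levels differed widely within a role. Per kilobase of canonical transcript, and as the mean over the 16 libraries, SNRPD2 had the highest level of the 46 (624 CPM per kilobase), followed by SNRPB (487), SNRPF (341) and LSM7 (204). PRPF19, the ubiquitin ligase of the complex that joins the spliceosome at its activation, came next (165) and was the highest of the PRPF genes. The lowest was LSM11 (2.73), with PRPF40B (2.95) and LSM12 (3.21) above it. The canonical transcripts of LSM8, SNRPD1 and LSM3 are far longer than their coding parts (12384, 4858 and 3359 bases), and their levels per kilobase (4.19, 34.3 and 24.2 CPM) rest on that choice.

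Other spliceosome genes were taken from lists of further snRNP proteins, the SMN complex that loads Sm proteins onto RNA, and the catalytic core with its helicases. A further list held splice site recognition proteins and SR proteins that bind exons. Among the 68 of these genes tested, edgeR called 0 in the 6 comparisons. Across these comparisons edgeR called between 0 and 4.05% of all genes. DESeq2 called 3 lower with DDR1i (CLNS1A, SNRNP25 and TXNL4A), 6 lower with RUNXi (BUD31, CLNS1A, SNRNP25, SNRNP40, SNW1 and WDR77), 1 lower with collagen than in the control (SNRNP200) and 0 in the other comparisons, where it called 10.0, 11.8 and 5.76% of all genes in those 3 comparisons. At an unadjusted p under 0.05 edgeR had 9 lower and 3 higher with DDR1i. The share of all genes was 18.0% in either direction and 8.14% for lower ones. With RUNXi there were 16 lower and 3 higher, where these shares were 21.1% and 10.2%. For collagen against control there were 9 higher and 3 lower (13.4% of all genes in either direction, 6.42% higher). For DDR1i against RUNXi there were 5 higher (6.19% of all genes in either direction). Against the control there were 1 higher and 1 lower with DDR1i (5.13% of all genes) and 3 lower with RUNXi (6.81% of all genes). The median log2 fold change was -0.10 with DDR1i (47 lower, 21 higher) and -0.18 with RUNXi (54 lower, 14 higher), and for collagen against control it was 0.12 (46 of 67 higher). The smallest p with DDR1i was that of CLNS1A, a chaperone that holds Sm proteins before they join the ring, with a log2 fold change of -0.45 (SE 0.13, adjusted p = 0.0713, edgeR), and with RUNXi its value was -0.43 (SE 0.13, adjusted p = 0.0662, edgeR). SNRNP200, the large U5 helicase that works beside PRPF8, had a log2 fold change of 0.31 with DDR1i (SE 0.12, adjusted p = 0.151, edgeR) and -0.43 for collagen against control (SE 0.12, adjusted p = 0.142, edgeR). SMN1 and SMN2, which are near-identical copies, were not tested.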

How the data were processed

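The authors aligned paired-end reads of 16 MCF10A libraries with STAR to hg19 (the processing notes and the study's methods) and deposited raw counts per gene. The counting tool and its strand setting are not given in the sources used here. The members and lists were chosen with earlier results of these data known. Counts were fitted with edgeR 4.0.16 in R 4.3.3 (TMM scaling, filterByExpr, robust quasi-likelihood test, adjusted over all genes) in 3 fits: the inhibitor groups with collagen (11 libraries, 13548 genes), collagen with control (7 libraries, 13092 genes) and the inhibitor groups with control (12 libraries, 13213 genes). Collagen replicate 3 was left out, as the authors did. Levels are CPM scaled by TMM over 16 libraries, except those of the marker genes, which are CPM of the total counts. Alternatives were DESeq2 1.42.0 and its size factors, other count filters, a replicate block, 15 libraries in 1 fit, collagen replicate 3 included, each library left out, and the trend with transcript or coding length removed by splines with 4 degrees of freedom. The coding length trend was added after seeing the data. Depth was 12184619 to 44332378 counts per library, and the lowest count of a member was 83. Values by library are given for the 8 genes with the smallest p over the 6 comparisons, as fewer were called, and for the gene with the highest CPM of each role; others named were chosen after their values were seen. Symbols of 23935 of 26475 genes matched the GENCODE annotation on GRCh37, and promoters are from RefSeq on GRCh38.p14. Within each group, all pairs of libraries (24) differed by more than sampling noise.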

Additional observations from a re-analysis of the deposited data

Results flagged for a closer look

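In 6 of 80 groups of 4 libraries tested, 1 library stood apart from the other 3 by the gap to the nearest of them as a share of the group's range (Dixon's test), and chance alone flags about 1 group in 20. In collagen replicate 3, LSM5 had 63.0 CPM against 103 to 106 CPM in the other collagen libraries (0.927 of the range). PRPF18 had 16.8 CPM in control replicate 3 against 23.6 to 23.8 CPM (0.977). In DDR1i replicate 1, SNRPA had 177 CPM against 139 to 144 CPM (0.874), and the U1 and U2 genes together had 512 CPM against 417 to 427 CPM (0.888). The Sm ring summed to 1622 CPM in RUNXi replicate 1 against 1478 to 1496 CPM (0.873), and the PRPF genes to 1701 CPM in DDR1i replicate 3 against 1841 to 1867 CPM (0.842). Causes were not tested.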

How the results depend on the processing

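As reported, edgeR called 3 of the 46 genes with DDR1i, 3 with RUNXi and 0 for collagen against control (2.47, 4.05 and 0% of all genes). In the same order the calls were 9, 10 and 5 with DESeq2, which gave an adjusted p for 44, 46 and 43 of the genes (10.0, 11.8 and 5.76% of all genes), 6, 10 and 3 with no filter (4.22, 5.84 and 1.57%), and 2, 3 and 4 with 15 libraries in 1 fit (1.70, 2.88 and 2.28%). With collagen replicate 3 included they were 0, 0 and 0 (0.0674, 0.449 and 0%), and with the coding length trend removed 0, 1 and 0 (0.260, 0.950 and 0%). With the replicate number as a block (replicate block) they were 5, 5 and 0 (3.96, 5.60 and 0%), PRPF8 being gained with both inhibitors, SF3B5 with DDR1i and PRPF4B with RUNXi, and SNRPD1, LSM3 and SF3B5 staying called with RUNXi and LSM3, LSM5 and SNRPB2 with DDR1i. The labels do not say what a number marks. Same-numbered libraries correlated by -0.093 to 0.28 over 24 pairs (median 0.069), and differently numbered ones had a median of -0.019. Of the same-numbered pairs 7 were over 0.1, among them all pairs of libraries numbered 4 (0.16 to 0.28), collagen replicate 4 included. Of the 16 libraries, 12 correlated best with their own number. These values are a hint from the data of pairing, which is not part of the design, and the main fits used no block. Leaving out 1 library gave 0 of the 46 with DDR1i without DDR1i replicate 3 (60 of all 13415 genes) to 7 without DDR1i replicate 1 (662 of 13468). With RUNXi it gave 0 without collagen replicate 4 (123 of 14036) to 7 without collagen replicate 1 (715 of 13975). With DDR1i 1 gene was called without collagen replicate 4 (87 of 14036) or DDR1i replicate 4 (96 of 13480). With RUNXi 1 was called without RUNXi replicate 1, 2, 3 or 4 (334 of 13462, 285 of 13493, 190 of 13470 and 224 of 13469). Among the 13 genes described by library, SF3B5, SF3B6 and SNRPA gained a call with DDR1i without DDR1i replicate 1, and without collagen replicate 1 SF3B5 gained one with DDR1i and SNRPB and SNRPB2 with RUNXi (log2 fold changes -0.54, -0.50, -0.46, -0.59, -0.57 and -0.56, edgeR). The cause of these changes was not tested.

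Among these 13 genes, direction changed for the following values, none of them called. Other members were not followed singly. With the coding length trend removed, the log2 fold change of PRPF8 was -0.13 with DDR1i and -0.098 with RUNXi, that of SF3B5 was -0.050 for collagen against control, that of LSM14A was 0.011 with RUNXi and -0.076 for collagen against control, and that of SF3B2 was -0.18 with DDR1i and 0.12 for collagen against control. With the transcript length trend removed, LSM14A (-0.043) and SNRPA (-0.0096) changed sign for collagen against control and SF3B2 (-0.0021) with DDR1i. LSM14A with RUNXi was 0.0025 with at least 10 counts in every library, 0.0074 with the replicate block and 0.00034 with 15 libraries in 1 fit, and SF3B2 for collagen against control was 0.013 with the block. Leaving out 1 library gave LSM14A -0.049 to 0.032 with RUNXi and -0.0044 to 0.066 for collagen against control, and SF3B2 -0.073 to 0.019 with RUNXi and -0.043 to 0.013 for collagen against control. Of the values of these 13 genes under alternatives, 639 kept direction and side of the threshold, 35 lost and 35 gained a call, and 19 changed sign.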
